A study of Mus musculus with 39 samples.

Results

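Gene expression of the hippocampus was compared with that of 3 other brain regions in control mice. The hippocampus is the 5 control samples with that region in their titles, out of 39 samples in all, and the other regions are the control amygdala (4 samples), cortex (5) and hypothalamus (5) of the same 5 mice. The contrast was the hippocampus minus the mean of the 3 other regions, each region weighted equally. The same contrast was taken in 20 samples of 5 PianpKO mice, 5 from each region, which share no sample with the control mice. PianpKO mice lack *Pianp*, a neuronal membrane protein that binds the GABAB receptor, in the whole body, because the floxed gene was removed by a CMV-cre transgene. Control mice carried the floxed *Pianp* allele (FL), derived from Pianptm1a(KOMP)Wtsi mice by crossing to an FLPe line, and no Cre is named for them. All mice were adult, male and experimentally naive, and their single ages were not used. The brain was cut coronally and the regions were taken by hand with tissue punches, so each sample is the whole tissue of a punch and holds every cell type in it. Total RNA of each sample was hybridized to 1 Affymetrix whole-transcript array.

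The hippocampus is a fold of the medial cortex that is needed for the memory of places and events. Granule cells of the dentate gyrus receive input from the entorhinal cortex and send mossy fibers to the pyramidal cells of CA3, which in turn project to those of CA1. Granule and pyramidal cells use glutamate, and scattered interneurons use GABA. The hippocampus is also rich in corticosteroid receptors, and the dentate gyrus adds neurons in adult life. In a coronal section it lies on top of the thalamus and the habenula, next to the ventricle that holds the choroid plexus, and under the white matter of the corpus callosum.

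The values are log2 expression levels, so that a difference of 1 is a doubling. They ran between 2.75 and 13.91 over 25429 probe sets, with a median of 4.62 on each array, and a level near this median cannot be told from background. The 5 control hippocampus arrays correlated with each other across probe sets at r = 0.9909 to 0.9951, and with the arrays of the amygdala at 0.984 to 0.9936, of the cortex at 0.9808 to 0.9916 and of the hypothalamus at 0.979 to 0.9914. No 2 arrays held identical values. *Pianp* itself was at 5.10 to 5.88 in PianpKO hippocampus samples, against 7.08 to 7.68 in control hippocampus samples, as their labels say.

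Markers of several tissues stood among the 15 genes with the highest excess in the hippocampus samples that were called against each region without overlap. Lack of overlap was thus a condition for these leading genes and is no separate result for them. The same rule gave 15 leading lower genes, among them *Rxrg*, *Cpne5*, *Drd1*, *Prg4*, *Lhx6* and *Gabra3*. *C1ql2*, *Lct* and *Dsp* mark granule cells of the dentate gyrus, *Tcf7l2*, *Plekhg1* and *Shox2* are known from the thalamus and habenula, and *Kl* and *Kcnj13* from the choroid plexus. *Prkcd* was the first of the 15, and *Vav3* (2.47), *Gm5741* (2.44), *Shisa6* (2.28), *F5* (2.24), *Slitrk6* (2.19) and *Tnnt1* (2.18) stood on none of the marker lists. The samples titled hippocampus thus had high levels of transcripts known from the dentate gyrus and of transcripts known from tissues that border the hippocampus. The name hippocampus samples is used below as the titles give it.

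A gene is called where its adjusted p is under 0.05 in limma with the mouse as a block and Benjamini-Hochberg adjustment over all 25429 probe sets. Against the mean of the other regions, 3274 probe sets were called (12.9%), 1725 higher (6.78%) and 1549 lower (6.09%) in the hippocampus. A log2 difference of at least 1 was reached by 116 of the higher genes (0.456% of all probe sets), against 40 of the lower ones (0.157%). The median difference over all probe sets was -0.01, and the median standard error was 0.068. Single regions gave 1505 higher (5.92%) and 1435 lower (5.64%) against the amygdala, 2026 (7.97%) and 1906 (7.5%) against the cortex, and 1735 (6.82%) and 1837 (7.22%) against the hypothalamus. These 3 comparisons share the hippocampus samples. In all 3, in the same direction, 477 genes were higher (1.88%) and 227 lower (0.893%), and in 248 of the higher (0.975%) and 83 of the lower genes (0.326%) no hippocampus sample overlapped any other sample. Single mice moved some of these counts by over 1.5 times. Without control mouse 1 or 2, 996 and 947 probe sets were lower than the mean, and 880 and 787 lower than the amygdala, with 995 and 949 higher than it. The lower calls against each region were 118, 120 and 150 without mouse 1, 2 and 5, and without mouse 2 the higher ones were 290. Without mouse 2 also 1250 were lower than the cortex, and without mouse 5 929 were lower than the amygdala.

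The hippocampus stood apart from all 3 regions mostly through genes that were higher. Of the 116 higher genes with a difference of at least 1, 99 were called against each region, and of the 40 lower genes 14. For 32 of those 40 lower genes the cortex had the lowest mean of the 3 other regions, and 3 of the 40 were called higher than the cortex. Of the 116 higher genes, 63 had the highest mean of the other regions in the hypothalamus, 28 in the amygdala and 25 in the cortex.

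Promoters are shown for 1 gene known from each of the dentate gyrus, the thalamus and the choroid plexus, and were searched for motifs of factor families with members among the higher genes. The windows run from 250 bases before to 50 bases after the start, are read 5′ to 3′ on the gene's strand, and come from RefSeq on GRCm38.p6. *Prox1* encodes a homeobox factor of dentate granule cells and its window is chr1:190170778-190171077 on the minus strand. *Prkcd* encodes protein kinase C delta, abundant in thalamic relay neurons and in the central amygdala, and its window is chr14:30626159-30626458 on the minus strand. *Kl* encodes klotho, a membrane protein of the choroid plexus, and its window is chr5:150952357-150952656 on the plus strand. *Prox1* and *Prkcd* have another start in the table, whose windows are not shown. Capitals mark the E-box.
Prox1: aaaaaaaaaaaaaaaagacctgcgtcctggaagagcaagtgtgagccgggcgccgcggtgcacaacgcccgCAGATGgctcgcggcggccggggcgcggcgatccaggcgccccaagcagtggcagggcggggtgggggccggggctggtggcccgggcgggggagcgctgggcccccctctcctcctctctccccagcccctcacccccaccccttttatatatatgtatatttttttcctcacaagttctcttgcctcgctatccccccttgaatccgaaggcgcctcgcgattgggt
Prkcd: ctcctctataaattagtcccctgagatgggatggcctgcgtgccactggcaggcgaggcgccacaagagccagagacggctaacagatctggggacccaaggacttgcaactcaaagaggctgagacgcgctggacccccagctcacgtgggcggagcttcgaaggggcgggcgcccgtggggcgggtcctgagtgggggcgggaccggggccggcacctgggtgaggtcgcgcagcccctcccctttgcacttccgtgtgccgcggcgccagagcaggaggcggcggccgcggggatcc
Kl: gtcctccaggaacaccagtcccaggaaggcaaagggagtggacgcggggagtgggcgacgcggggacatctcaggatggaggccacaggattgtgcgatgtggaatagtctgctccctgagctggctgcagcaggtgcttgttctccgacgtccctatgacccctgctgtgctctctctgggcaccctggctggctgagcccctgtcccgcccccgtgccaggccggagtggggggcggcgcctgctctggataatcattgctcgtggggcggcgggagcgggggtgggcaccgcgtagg

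The windows were searched on both strands for the E-box CAGATG, a site of bHLH factors such as those of the NeuroD family, for CTTTGAT, a site of TCF and LEF factors, and for TAATCC, a site of OTX factors. *Prox1* held 1 E-box, at position -179 from the start, and no other match was found in the 3 windows. The E-box occurred in 15.1% of 484 promoters of genes higher than in each region, against 17.2% of all 32851 promoters in the table and 14.8% of the 22712 promoters of measured genes. The shares were 1.4%, 3.7% and 3.4% for CTTTGAT and 6.8%, 7.1% and 6.6% for TAATCC, so that the higher genes lay between both backgrounds for the E-box and TAATCC. Of the 477 higher genes, 364 had a promoter in the table. The motifs and the windows shown were picked after the values and matches were seen.

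Granule cell markers included the hippocampal genes with the largest differences. Of 15 measured markers, 9 were higher in the hippocampus and 0 lower, 7 of them against each region, with a median difference of 0.38 beside -0.01 over all probe sets. Over all probe sets 6.78% were higher and 6.09% lower, the background for the counts of this and every later list. *C1ql2*, a secreted synaptic protein of mossy fibers, was at 8.76, 8.52, 7.18, 7.25 and 8.67 in the hippocampus samples of control mice 1 to 5. It was at 5.18 to 5.65 in the amygdala, 4.52 to 5.58 in the cortex and 5.62 to 6.22 in the hypothalamus. The hippocampus samples of mice 3 and 4 were lower than the others, but every one was above all samples of the other regions. The log2 difference from their mean was 2.55 ± 0.21 (SE, n = 5 mice, adjusted p = 2e-06).

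*Prox1* was at 8.65, 8.41, 7.68, 8.48 and 8.51 in the hippocampus samples, against 5.59 to 6.36 in the amygdala, 5.78 to 6.36 in the cortex and 6.19 to 7.0 in the hypothalamus. The sample of mouse 3 was the lowest, and the groups did not overlap (difference 2.16 ± 0.15, adjusted p = 4.21e-07). *Dsp*, which encodes the junction protein desmoplakin, was at 6.86, 6.54, 5.0, 5.82 and 6.30 in the hippocampus samples and at 3.46 to 3.96 in all others, which is below the array median. Its difference was 2.49 ± 0.18 (adjusted p = 6.13e-07). *Lct*, the gene of lactase, behaved alike, with 6.73, 6.73, 5.41, 5.94 and 6.91 in the hippocampus samples and 3.59 to 4.03 elsewhere (2.52 ± 0.17, adjusted p = 3.38e-07). Control mouse 3 had the lowest value of these 4 genes. In the PianpKO hippocampus samples, mouse 3 was also lowest for *Dsp* (4.56), *Lct* (5.61) and *C1ql2* (7.24), but not for *Prox1*. *Prox1* was at 8.07, 7.70, 8.29, 8.77 and 8.12 in PianpKO mice 1 to 5, the same order of mice as for *Prkcd*. In control mice both genes were highest in mouse 1 and lowest in mouse 3, but the order of the other mice differed. Which tissue of the punch gave the *Prox1* signal was not tested. In a bulk sample, fewer cells of a type and less RNA per cell cannot be told apart.

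The other called granule cell markers were *Il16* (1.72), *Glis3* (0.66), *Tdo2* (0.61), *Trpc6* (0.38) and *Stxbp6* (0.33). *Trpc6* was no longer called without mouse 5 (adjusted p = 0.0927), and *Stxbp6* not without mouse 1 or 5 (0.056 and 0.105). *Tdo2* stayed below the array median in the hippocampus too. *C1ql3* (-0.13), *Npnt* (0.30), *Rasl10a* (0.28), *Plk5* (0.05), *Sema5b* (0.02) and *Pdzd2* (-0.10) did not pass the test.

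**Figure D1:**
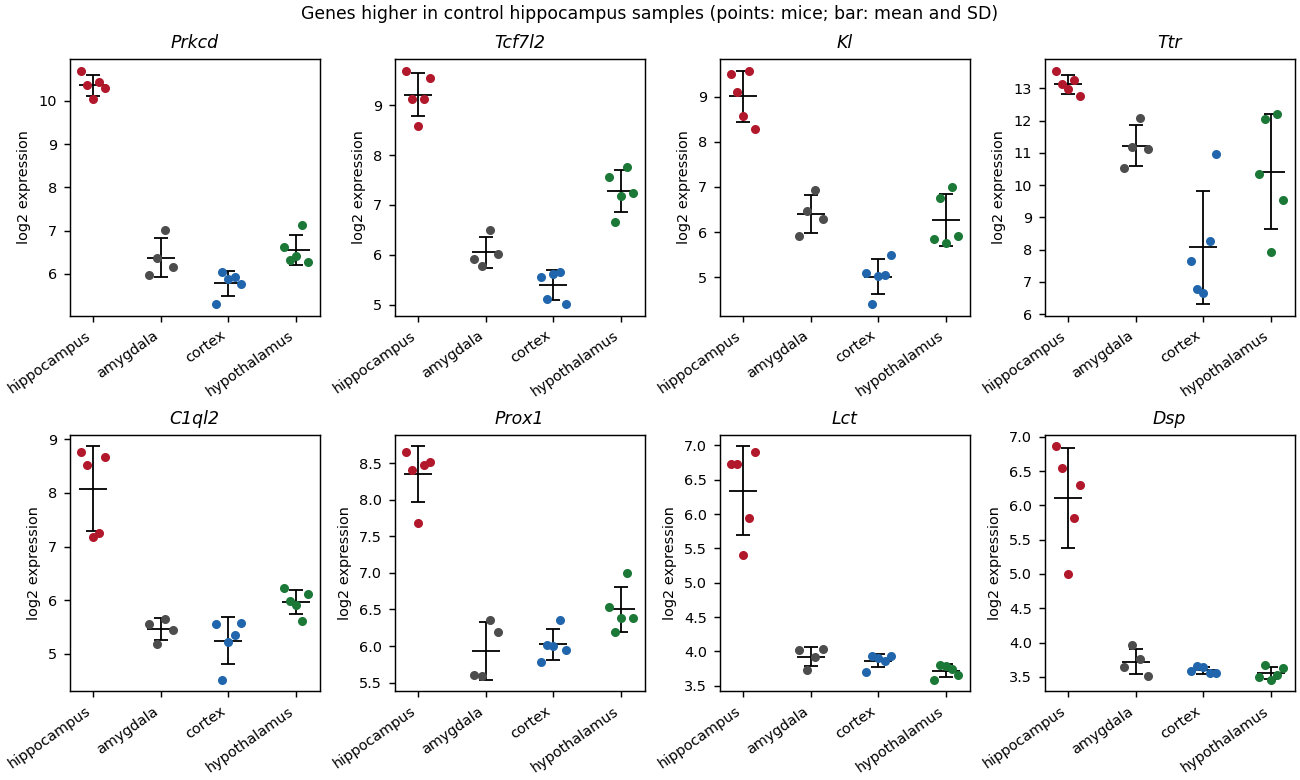
Log2 expression of 8 genes in the control samples, with the region on the x axis, a point for each mouse, and the mean and SD as a horizontal and a vertical bar. All hippocampus points lie above all points of the other regions in each panel. For the genes other than *Ttr* and *Prox1*, the rule for the leading genes required this. The spread of *Ttr* is wide in the cortex and the hypothalamus, where it ran between 6.67 and 12.22.

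Pyramidal cell markers were less uniform. Of 9 markers of CA1, the output field of the hippocampus, *Spink8* and *Fibcd1* were higher and *Ccn3* and *Mpped1* lower, and the list's median difference was 0.00. *Spink8*, a protease inhibitor gene of CA1, was at 5.82, 5.81, 5.72, 5.28 and 6.27 in the hippocampus samples, against 4.15 to 4.48 in the amygdala, 3.47 to 3.80 in the cortex and 3.70 to 3.88 in the hypothalamus. All 5 were above all others (1.88 ± 0.09, adjusted p = 1.31e-08). *Fibcd1* was at 6.38, 7.10, 6.45, 6.11 and 6.37, against 4.93 to 5.75 in the other regions, again with no overlap (1.10 ± 0.13, adjusted p = 4.85e-05). *Ccn3* had a difference of -0.92 and *Mpped1* of -0.50, and neither was called without any 1 of mice 1, 2, 4 and 5 (adjusted p = 0.0711 to 0.096 and 0.0975 to 0.225). *Wfs1* (-0.32), *Pou3f1* (0.16), *Lefty1* (0.13), *Man1a* (-0.01) and *Gpr161* (0.00) did not pass the test.

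Of 12 markers of CA3 and CA2, 8 were higher, 4 of them against each region, and 0 lower (median 0.41). They were *Iyd* (1.04), *Bok* (0.96), *Necab2* (0.95), *Amigo2* (0.60), *Grik4* (0.59), *Rgs14* (0.42), *Cacng5* (0.39) and *Pcp4* (0.33). *Grik4*, a kainate receptor subunit of the mossy fiber synapse, was higher than in each region, as were *Iyd*, *Bok* and *Pcp4*. *Rgs14*, a signaling regulator of CA2, differed from the amygdala by only -0.01 and lost its call without any 1 of mice 2 to 5 (adjusted p = 0.0514 to 0.16), and *Cacng5* lost it without mouse 1 (adjusted p = 0.068). Of 5 mossy cell markers, only *Calb2* was called (1.03), and it was lower than in the hypothalamus (-0.81).

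Genes of the thalamus and habenula were mostly higher in the hippocampus samples than in each other region. Of 11 markers, 10 were higher, 9 of them against each region, and 1 lower, with a median difference of 0.94. Like the other lists, this one was chosen with earlier results of these data known, so its count is no independent check. *Prkcd*, which stood in the list of amygdala genes, had the highest difference of all named genes. It was at 10.70, 10.36, 10.04, 10.44 and 10.29 in the hippocampus samples, against 5.98 to 7.01 in the amygdala, 5.30 to 6.05 in the cortex and 6.27 to 7.13 in the hypothalamus. No sample of another region came near them, and the difference was 4.11 ± 0.16 (adjusted p = 3.45e-09).

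*Tcf7l2*, a transcription factor of Wnt signaling that is kept in adult thalamic neurons, was at 9.69, 9.12, 8.58, 9.13 and 9.54 in the hippocampus samples. It was at 5.78 to 6.49 in the amygdala, 5.01 to 5.65 in the cortex and 6.66 to 7.75 in the hypothalamus, so that the hypothalamus was second but did not overlap (2.96 ± 0.17, adjusted p = 9.38e-08). *Plekhg1* (2.68), *Synpo2* (2.15), *Lef1* (1.88), *Rora* (0.87) and *Gbx2* (0.54), which are found in the thalamus, were also higher than in each region. *Chrnb4*, a nicotinic receptor subunit of the medial habenula, was at 6.89, 5.77, 4.97, 5.92 and 6.64 in the hippocampus samples and at 3.72 to 4.34 in all others (1.98 ± 0.19, adjusted p = 8.56e-06). Its partner subunit *Chrna3* (2.11) and the habenular genes *Gpr151* (0.94) and *Pou4f1* (0.88) moved in the same direction, the last 2 at levels below the array median. *Tac1*, the gene of substance P, was the member that was lower (-1.21), and *Nwd2* (0.68) lost its call without any 1 of mice 2 to 5 (adjusted p = 0.0568 to 0.0861). *Shox2*, a homeobox factor of the thalamus and habenula that was not on the list, was higher by 2.52, and *Slc17a6*, the vesicular glutamate transporter of the thalamus and hypothalamus, by 1.16, although it exceeded the hypothalamus by only 0.24.

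Choroid plexus genes were higher without exception: 12 of 12 markers were called, 10 of them against each region, and the median difference was 1.64. *Kl* was at 9.50, 9.10, 8.56, 9.57 and 8.29 in the hippocampus samples, against 5.92 to 6.94 in the amygdala, 4.41 to 5.49 in the cortex and 5.77 to 7.01 in the hypothalamus (3.07 ± 0.24, adjusted p = 1.45e-06). *Ttr*, the gene of the thyroid hormone carrier transthyretin, was at 13.55, 13.14, 12.98, 13.25 and 12.76 in the hippocampus samples. The other regions varied widely, with 10.52 to 12.08 in the amygdala, 6.67 to 10.98 in the cortex and 7.94 to 12.22 in the hypothalamus. The hippocampus samples were above them all, with a difference of 3.17 ± 0.64 (adjusted p = 0.00371), but *Ttr* was not called against the amygdala alone (1.73, adjusted p = 0.235). *Kcnj13* (2.77), a potassium channel, *Slc4a5* (1.94), a bicarbonate transporter, *Folr1* (1.77), the folate receptor, and *Otx2* (1.39), the transcription factor of choroid plexus epithelium, were higher than in each region. Of 9 markers of ciliated ependymal cells, which line the ventricle, 8 were higher, none against each region (median 0.53), and 3 of 9 were still called without mouse 2. *Ak7* (1.01) and *Foxj1* (0.69) were examples.

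The thalamic and the CA1 markers did not vary alike over the 5 hippocampus samples. The mean level of the thalamus and habenula markers was 7.13, 6.59, 6.50, 7.06 and 6.91 in mice 1 to 5, against 5.32 to 5.90 over all samples of the other regions. The mean level of the CA1 pyramidal cell markers was 6.30, 6.92, 6.80, 6.20 and 6.78, against 6.14 to 6.66 elsewhere. The mice with the 2 highest thalamic means, 1 and 4, had the 2 lowest means of the CA1 list. Mice 2 and 3, with the 2 lowest thalamic means, had its 2 highest. Single CA1 genes did not all follow this order. *Spink8*, at 5.82, 5.81, 5.72, 5.28 and 6.27 in mice 1 to 5, was highest in mouse 5 and next in mouse 1. *Fibcd1* (6.38, 7.10, 6.45, 6.11 and 6.37) was highest in mice 2 and 3 and lowest in mouse 4. The granule cell genes *C1ql2*, *Prox1* and *Dsp* were highest in mouse 1 and lowest in mouse 3, as the thalamic list was. *Lct* was lowest in mouse 3 but highest in mouse 5. The mean of the dentate granule cell markers was 6.53 to 7.12 in the hippocampus samples, against 5.68 to 6.13 elsewhere, and that of the choroid plexus markers 6.29 to 7.45, against 4.24 to 5.66. *Tcf7l2*, *Kl* and *Ttr* were at 8.29 or more in every hippocampus sample. The part of the bordering tissues in the other differences between the hippocampus and the 3 regions was not tested.

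**Figure D2:**
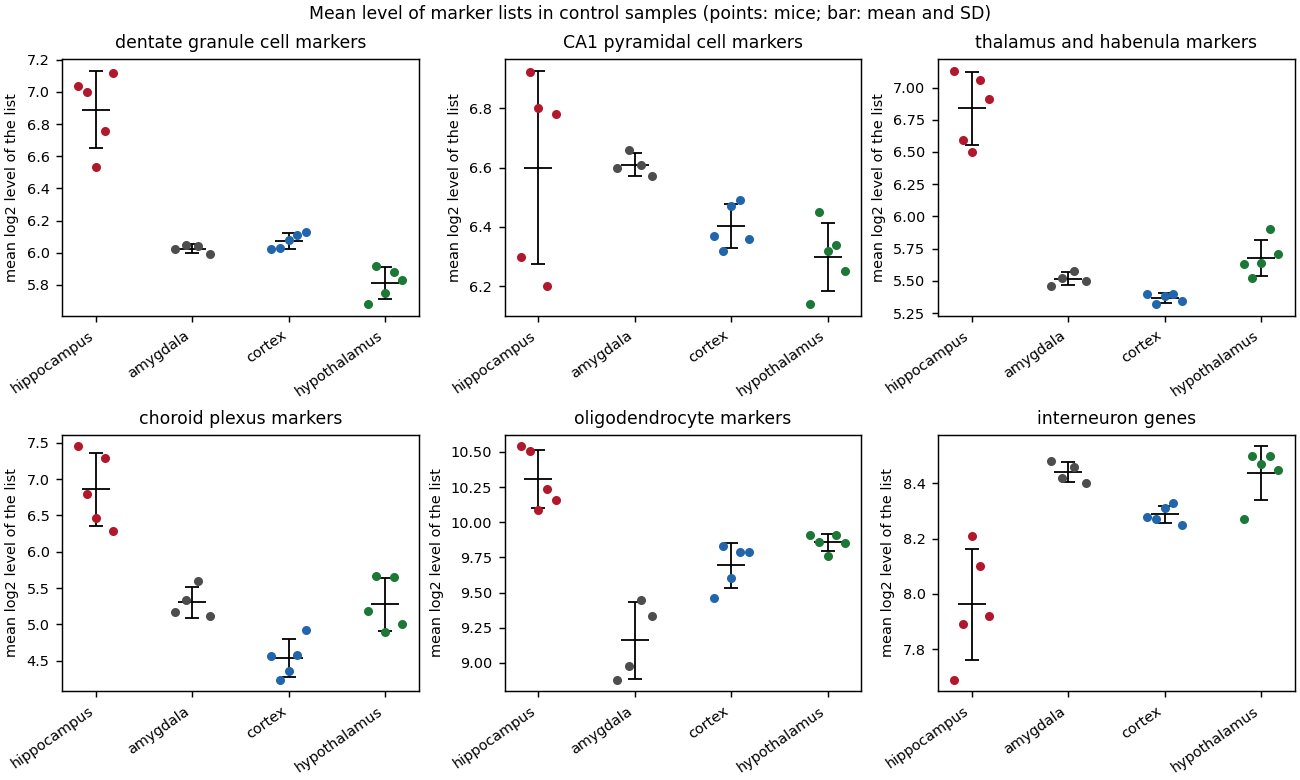
Mean log2 level of 6 marker lists in the control samples, with the region on the x axis, a point for each mouse, and the mean and SD as bars. The hippocampus points are above all others for the dentate, thalamic, choroid plexus and oligodendrocyte lists, below all others for the interneuron list, and spread from 6.20 to 6.92 for the CA1 list, where they overlap the other regions.

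The genes that varied most between the 5 hippocampus samples were not hippocampal markers. *Pmch*, a neuropeptide gene of the lateral hypothalamus, had the largest SD (2.00, range 4.49 to 9.24), against a median SD of 0.13 over all probe sets. It was followed by *Igkc*, an immunoglobulin light chain gene (1.56), *Avp*, the vasopressin gene (1.47), and *Gh*, the growth hormone gene (1.43). *Avp* was at 5.78, 8.71, 9.43, 6.79 and 7.30 in the hippocampus samples, against 9.55 to 10.86 in the amygdala, 6.35 to 6.79 in the cortex and 11.46 to 12.29 in the hypothalamus. Mice 2 and 3 were thus nearer to the amygdala than the other mice were. The small nucleolar RNA genes *Snora69*, *Snord11* and *Snord90*, the predicted gene *Gm12770*, *Mef2b* and the habenular *Chrna3* completed the 10 largest, with an SD of 1.01 to 1.08.

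Transcription factors of the NeuroD family, which drive the maturation of glutamatergic neurons, were higher in the hippocampus. *Neurod6* was at 8.17, 8.50, 8.18, 8.38 and 8.39 in the hippocampus samples, against 6.86 to 7.29 in the amygdala, 7.84 to 8.16 in the cortex and 4.09 to 5.84 in the hypothalamus. The cortex came close to it without overlap (difference from the cortex 0.33, adjusted p = 0.342). The difference from the mean of the regions was 1.55 ± 0.16 (adjusted p = 2.1e-05). *Neurod1* (0.80) and *Zbtb20* (0.79), a zinc finger factor of hippocampal pyramidal neurons, were higher too, and only *Zbtb20* was higher than each region. *Neurod2* (0.94) lost its call without any 1 of mice 2 to 5 (adjusted p = 0.0618 to 0.145). Of 16 measured factors, 6 were higher, also *Nfix* (0.43) and *Klf9* (0.27), and *Meis2* was lower (-0.87). The call of *Klf9* was lost without mouse 1, 3 or 5 (adjusted p up to 0.114).

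Immature neuron and proliferation genes showed no common direction, with 2 of 12 higher and 1 lower, beside 6.78% and 6.09% of all probe sets. In the hippocampus, 7 of the 12 were at or below the array median. *Hopx*, a gene of quiescent neural stem cells, was higher by 0.63, against each region. *Dcx*, the doublecortin gene of migrating young neurons, was lower than in each region (-0.72), and *Mki67* (0.05), *Eomes* (-0.13) and *Sox11* (-0.30) did not pass the test.

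Genes of corticosteroid action were led by *Hsd11b1* and *Nr3c2*. *Hsd11b1*, which regenerates active corticosterone inside cells, was at 7.53, 7.62, 7.09, 7.61 and 7.22 in the hippocampus samples, against 5.86 to 5.98 in the amygdala, 6.52 to 6.89 in the cortex and 5.43 to 6.12 in the hypothalamus. All 5 were above all others (1.27 ± 0.09, adjusted p = 5.95e-07). *Nr3c2*, the mineralocorticoid receptor, was at 8.51, 8.70, 8.05, 8.50 and 8.57, against 7.18 to 7.70 in the other regions, also with no overlap (1.01 ± 0.09, adjusted p = 3.49e-06). *Sgk1*, a corticosteroid-induced kinase, was higher by 0.41, while the glucocorticoid receptor *Nr3c1* had a difference of 0.03. *Crh*, the corticotropin-releasing hormone gene, and its receptor *Crhr1* were lower (-0.74 and -0.46), so that 3 of 10 genes of the list were higher and 2 lower.

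Receptor subunits for the main transmitters split by gene. Of 16 ionotropic glutamate receptor subunits, 4 were higher, namely *Grik4* (0.59), *Grin2a* (0.53), *Gria1* (0.35) and *Grin2c* (0.27), and 5 lower (3 without mouse 1), led by *Grik3* (-0.74), which was lower than in each region. Of 6 metabotropic receptors, *Grm4* (0.55) and *Grm2* (0.53) were higher and *Grm8* (-0.62) lower, and *Grm2* lost its call without mouse 1 or 5 (adjusted p = 0.091 and 0.0689). Of 12 GABAA receptor subunits, *Gabra5* (0.66), which forms the extrasynaptic receptors of hippocampal pyramidal cells, and *Gabra4* (0.58) were higher than in each region. The lower subunits numbered 6, of which *Gabra3* and *Gabrg3* (-0.72) were lower than in each region. *Gabra3* was at 9.02, 9.15, 9.77, 9.34 and 9.56 in the hippocampus samples, against 9.96 to 10.52 in the other regions, with no overlap (-0.87 ± 0.09, adjusted p = 1.26e-05). *Gabrq* (-1.45) and *Gabre* (-0.96) were lower against the amygdala and the hypothalamus but not against the cortex. Both were at or below the array median in the hippocampus.

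For the GABAB receptor and *Pianp*, 3 of 13 genes were higher and 1 lower, beside 6.78% and 6.09% of all probe sets. *Gabbr1* (0.19) was higher than in each region, *Gabbr2* (0.30) rose against the amygdala and the hypothalamus, and the auxiliary subunit gene *Kctd12* (0.28) lost its call without mouse 2, 3 or 5 (adjusted p = 0.0573 to 0.103). *Pianp* was the lower gene. It was at 7.25, 7.08, 7.68, 7.60 and 7.68 in the hippocampus samples, against 7.81 to 8.12 in the amygdala, 7.79 to 8.16 in the cortex and 7.51 to 8.06 in the hypothalamus. The hippocampus overlapped the hypothalamus in 1 low hypothalamic sample and lay below all others (-0.48 ± 0.07, adjusted p = 0.000428), and the call held against each region.

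Among genes of plasticity and excitability, *Hpca* (0.97), the calcium sensor hippocalcin, was higher than in each region, and the calmodulin-stimulated adenylyl cyclases *Adcy1* (0.88) and *Adcy8* (0.45) were higher than the mean, the first of them not above the cortex (-0.06). In all, 3 of 17 plasticity genes were higher and 4 lower, with *Pde1a* (-0.52) and *Camk2d* (-0.35) among the lower ones, of which 2 were called without mouse 1, 2, 4 or 5. Of 21 potassium and HCN channels, 9 were higher, with *Kcnc2* (0.70) and *Hcn2* (0.46) against each region, and 6 lower, led by *Kcnh1* (-0.69). Without mouse 2, 6 were higher and 2 lower. Of 20 immediate early genes, which neurons induce on activity, *Nr4a3* (1.16) was higher than in each region and *Jun* (0.59) higher than the mean, while *Fos* (-0.25), *Arc* (0.15) and *Egr1* (-0.40) did not pass the test. *Nr4a2* (0.65), *Fosb* (-0.41) and *Homer1* (-0.42) were called, but each lost its call when any 1 of at least 3 mice was left out (adjusted p = 0.0793 to 0.164, 0.0798 to 0.15 and 0.0859 to 0.146).

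**Figure D3:**
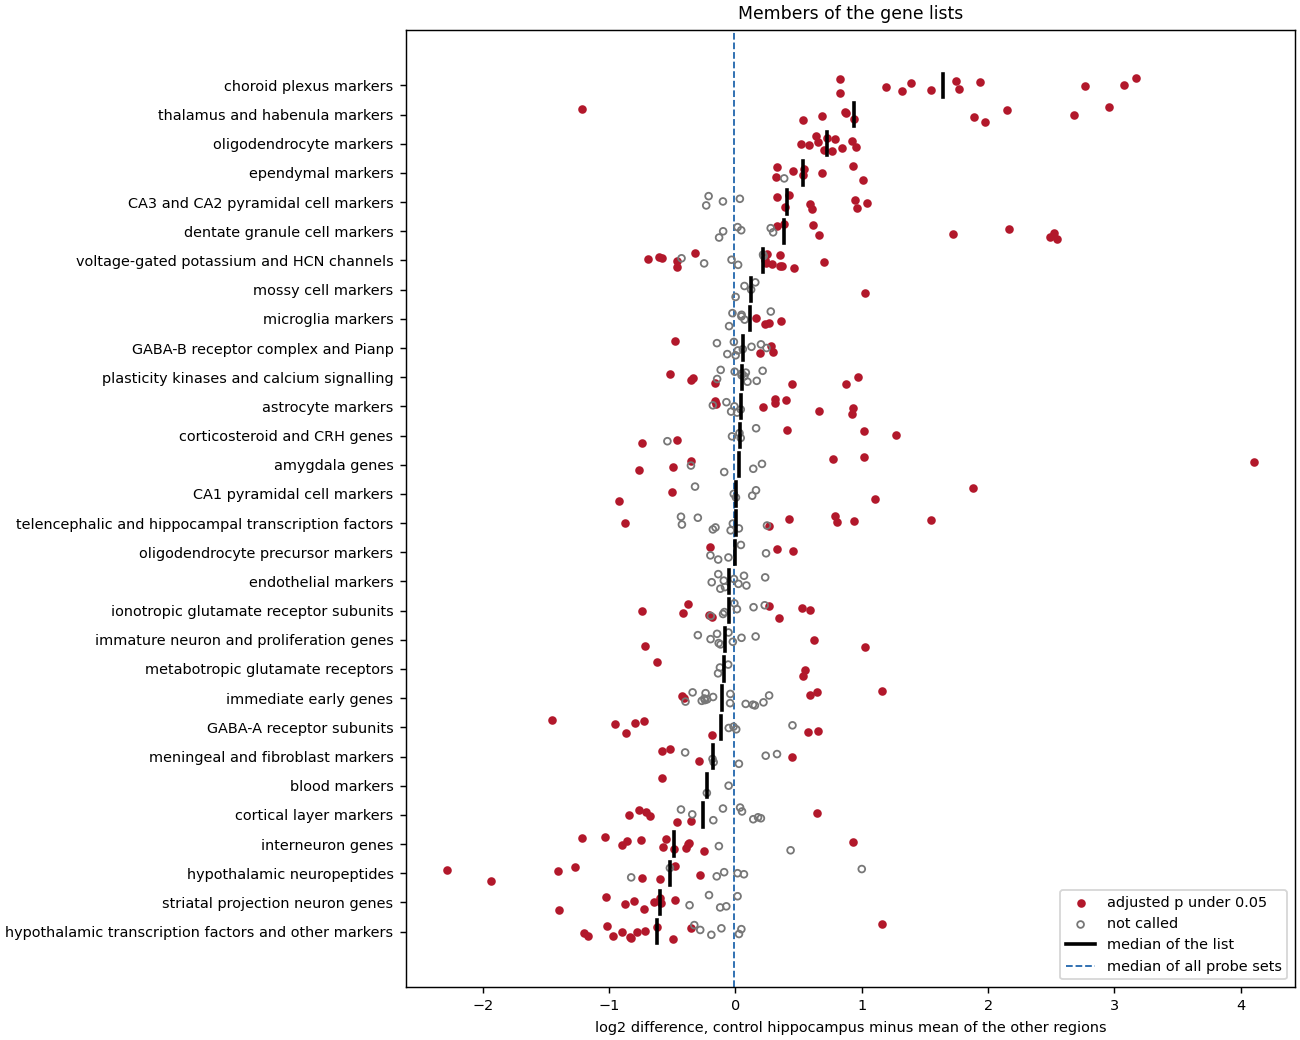
Log2 difference of control hippocampus minus the mean of the other regions (x axis) for each member of the 30 gene lists (rows, ordered by their median). Filled points passed an adjusted p of 0.05, open points did not, bars mark the list medians, and the dashed line marks the median of all probe sets at -0.01. Choroid plexus, thalamic and oligodendrocyte lists lie highest and hypothalamic and striatal lists lowest.

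Genes of GABAergic interneurons were mostly lower in the hippocampus samples. Of 15 genes, 12 were lower, 5 of them than in each region, and 1 higher, with a median difference of -0.49. Without mouse 1, 7 were called lower. *Lhx6*, the transcription factor of interneurons from the medial ganglionic eminence, was at 6.23, 6.45, 6.80, 6.12 and 6.85 in the hippocampus samples, against 7.21 to 7.37 in the amygdala, 7.17 to 7.69 in the cortex and 6.90 to 8.31 in the hypothalamus. The groups came close to each other but did not overlap (-0.90 ± 0.13, adjusted p = 0.000331). *Reln* (-0.86), the vesicular GABA transporter *Slc32a1* (-0.75) and somatostatin *Sst* (-0.55) were also lower than in each region. *Gad2*, a GABA-synthesizing enzyme, was lower than the mean (-0.58) but not lower than the cortex (0.14). *Vip* (-1.03) lost its call without mouse 1 or 2 (adjusted p = 0.0677 and 0.0616). *Pvalb*, which marks fast-spiking interneurons, was the higher gene (0.93), at a level 0.05 above the cortex. The thalamic list was high in the same samples, and its part in the lower interneuron genes was not tested.

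Striatal genes were lower too, 9 of 14 with 0 higher and a median of -0.59. *Drd1*, the D1 dopamine receptor, was at 5.94, 5.38, 6.64, 6.51 and 5.41 in the hippocampus samples, against 6.89 to 7.67 in the amygdala, 6.79 to 7.65 in the cortex and 7.18 to 8.39 in the hypothalamus. No sample overlapped, as the rule for the leading genes required (-1.40 ± 0.17, adjusted p = 5.39e-05). *Rgs9* (-1.02) was lower than in each region, and *Penk* (-0.80) lower than the mean. *Rxrg*, a retinoid X receptor gene expressed in the striatum, was also among the lower genes. It was at 4.49, 4.76, 4.78, 4.91 and 4.62 in the hippocampus samples, which is near the array median and cannot be told from background, against 6.05 to 6.52 in the amygdala, 5.26 to 6.40 in the cortex and 6.14 to 6.59 in the hypothalamus (-1.43 ± 0.11, adjusted p = 1.78e-06).

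*Cpne5*, a calcium-dependent phospholipid binding protein, was at 7.35, 7.0, 8.25, 7.99 and 7.52 in the hippocampus samples, against 8.62 to 9.32 in the other regions (-1.41 ± 0.12, adjusted p = 4.27e-06). *Prg4*, which encodes the joint lubricant lubricin, was at 5.12, 4.98, 5.21, 4.59 and 4.90, against 6.45 to 7.45 in the amygdala, 5.26 to 6.22 in the cortex and 5.94 to 6.96 in the hypothalamus. The highest hippocampus sample was only 0.05 below the lowest cortex sample (-1.34 ± 0.16, adjusted p = 5.15e-05). The axon guidance genes *Sema3a* (-1.14), *Efnb2* (-1.09) and *Unc5d* (-0.99), the synaptic vesicle gene *Rab3b* (-1.09) and the prohormone convertase *Pcsk1* (-0.96) were lower than in each region, as were *Gm12371* (-1.42), *Susd2* (-1.13), *Tnnt2* (-0.92) and *Fnbp1l* (-0.88).

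**Figure D4:**
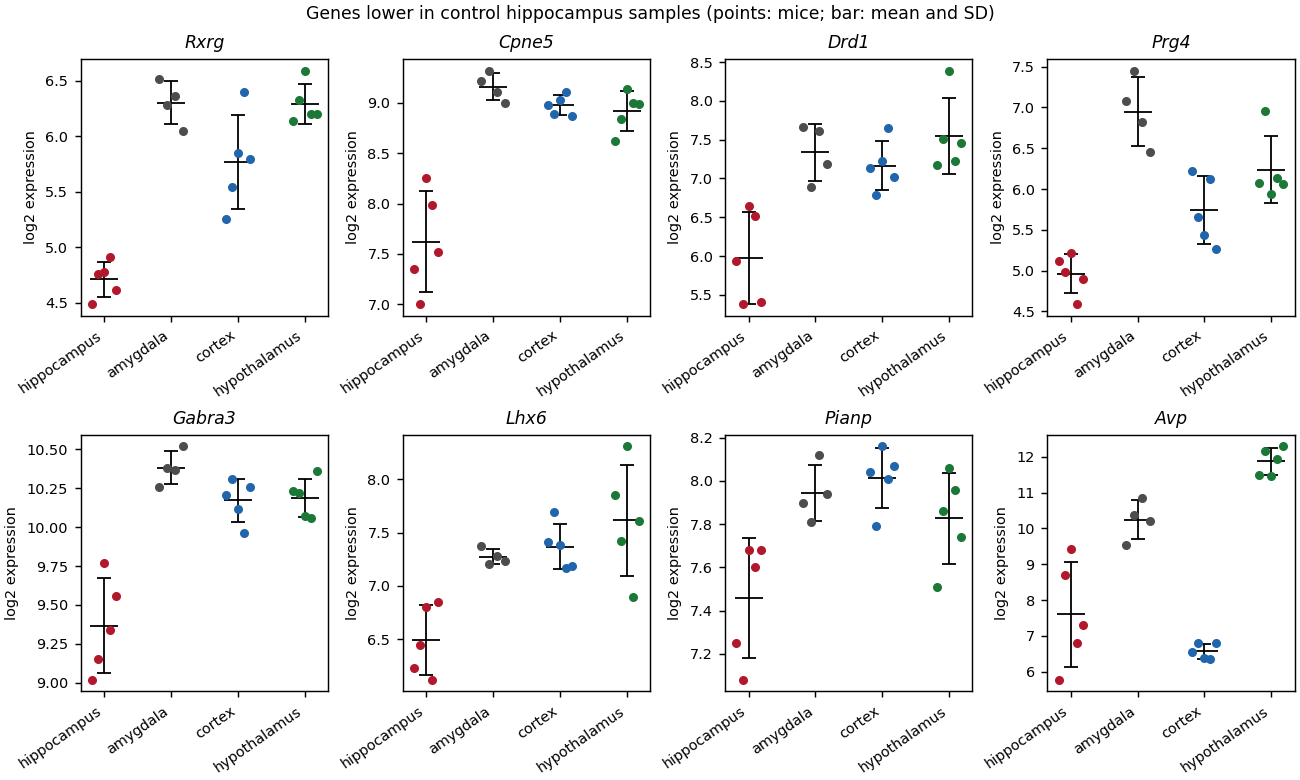
Log2 expression of 8 genes that were lower in the hippocampus than in the mean of the other regions, with the region on the x axis, a point for each control mouse, and the mean and SD as bars. *Rxrg*, *Cpne5*, *Drd1*, *Prg4*, *Gabra3* and *Lhx6* do not overlap the other regions, as the rule for the leading genes required. *Pianp* overlaps 1 hypothalamus sample, and *Avp* overlaps the cortex.

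Markers of the other regions were low or mixed, as far as they could be read. Of 15 hypothalamic neuropeptides 8 were lower and 0 higher (median -0.52), led by *Oxt* (-2.29) and *Avp* (-1.93). Of 19 other hypothalamic genes 12 were lower and 1 higher (-0.62). In the hippocampus, 10 of the 15 neuropeptides, with *Oxt* among them, and 11 of the 19 other genes were at or below the array median. *Oxt* (oxytocin) and *Avp* were not below the cortex (0.37 and 1.03, neither called), so that their difference was that from the hypothalamus and the amygdala. Of 16 cortical layer markers, 6 were lower and 1 higher (median -0.26), and *Lamp5* (-0.85) of the upper layers was among the lower ones. Of 10 amygdala genes, 3 were higher and 3 lower, with 1 lower without mouse 1, 2, 4 or 5. Of 10 meningeal genes, 3 were lower, with 1 without mouse 5, and *Dcn* was higher (0.45) but lost its call without any 1 of mice 1 to 4. Of 3 measured blood genes, all at or below the array median in the hippocampus, *Hbb-bt* was lower (-0.58), and its call was lost without mouse 2 or 5. The cortical marker that was higher was not called without mouse 3, 4 or 5. Of 10 endothelial genes, 0 were called.

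Oligodendrocyte genes formed the glial group that rose together. All 11 measured markers were higher, 8 of them than in each region, and the median difference was 0.73. *Mag*, the myelin-associated glycoprotein, was at 10.54, 10.32, 9.85, 10.04 and 9.99 in the hippocampus samples, against 8.37 to 9.01 in the amygdala, 9.09 to 9.61 in the cortex and 9.43 to 9.67 in the hypothalamus. The hippocampus samples lay above all others (0.96 ± 0.12, adjusted p = 0.000122). *Mog* (0.93), *Ermn* (0.84) and *Mbp* (0.52), all genes of myelin, behaved alike. Of 8 precursor markers, 2 were higher (*Olig1* at 0.45 and *Olig2* at 0.33) and *Pdgfra* lower (-0.20), a call that was lost without mouse 3, 4 or 5. The thalamic list was high in the same samples, and its part in the myelin difference was not tested.

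*Mir219a-2*, the gene of a microRNA that promotes oligodendrocyte maturation, was higher by 0.55 ± 0.09 (adjusted p = 0.000607). Its mean was 5.64 in the hippocampus, against 4.82 in the amygdala, 5.37 in the cortex and 5.09 in the hypothalamus, and the difference from the cortex alone was not called. The array reads the gene's transcript and not the mature RNA, whose sequence in RefSeq (GRCm38.p6, chr2:29845689-29845709, minus strand) is shown with its seed, bases 2 to 8, in capitals.
mmu-miR-219a-5p: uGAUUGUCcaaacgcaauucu

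Of 532 microRNA genes measured, 3 were higher (0.6%, beside 6.78% of all probe sets) and 4 lower. *Mir1983* (0.60) and *Mir6516* (0.30) were the other higher ones, and they had differences of -0.20 and -0.06 in PianpKO mice, whereas *Mir219a-2* had 0.52 there (adjusted p = 0.00204). *Mir136* (-0.21), *Mir380* (-0.16) and *Mir434* (-0.26), which lie together on chromosome 12, were lower at levels below the array median, and their calls were lost without any 1 of 2 to 4 mice (adjusted p up to 0.149).

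Of 15 astrocyte markers, 7 were higher and 2 lower (median 0.04), and without any 1 mouse at most 1 was called lower. The call of *Slc1a3* (-0.16), a glutamate transporter gene, was lost without each of the 5 mice in turn (adjusted p = 0.0636 to 0.119). *Gfap* (0.93), the intermediate filament of astrocytes, and the water channel *Aqp4* (0.66) were higher than in each region, and *Agt*, the angiotensinogen gene, was higher than the mean (0.92) but lower than the hypothalamus (-0.63). Of 10 microglia markers, 4 were higher, by at most 0.36 (*C1qc*, a complement gene), and 0 lower. Leaving out 1 mouse left at most 2 of them called, with 0 without mouse 1, and 0 were called in PianpKO mice.

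The same contrast was fitted in the PianpKO mice, whose samples did not enter the fit of the control mice. There 1663 probe sets were higher (6.54%) and 1494 lower (5.88%) in the hippocampus than in the mean of the other regions, and 496 (1.95%) and 223 (0.877%) against each region. The higher calls shared 1166 probe sets with those of control mice, which is 70.1% of the PianpKO and 67.6% of the control calls, and the lower calls shared 933 (62.4% and 60.2%). Against each region, 293 higher calls (59.1% and 61.4%) and 50.2% and 49.3% of the lower calls were shared. Of the control calls, 1 higher and 0 lower ones were called in the opposite direction in PianpKO mice.

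All 15 higher and 15 lower genes that lead the control contrast were also called in PianpKO mice, 14 and 13 of them against each region. *Prkcd* was at 9.67, 9.12, 10.72, 10.87 and 9.89 in the PianpKO hippocampus samples (difference 3.69 in PianpKO and 4.11 in control mice). *C1ql2* was at 7.81, 8.16, 7.24, 8.69 and 8.52 (2.57 and 2.55), and *Kl* at 9.05, 8.75, 7.71, 9.51 and 9.50 (3.0 and 3.07). In the other PianpKO regions the highest values of *Prkcd* and *C1ql2* were 8.11 and 6.49, so that these genes did not overlap. *Kl* overlapped, with 8.62 in the amygdala of mouse 2, above the hippocampus of mouse 3. *Kcnj13* (8.28 against 7.18) and *F5* (6.81 against 5.79) overlapped between the same samples. The markers of the thalamus (9 of 11 higher), the choroid plexus (12 of 12), oligodendrocytes (11 of 11) and granule cells (8 of 15) were higher in PianpKO mice as well, and 11 of 15 interneuron genes were lower. Other lists gave different counts: 0 of 10 microglia markers were called in PianpKO mice, 0 metabotropic receptors were higher and 2 lower there, and 3 CA1 markers were higher and 0 lower, against 4 higher microglia markers, 2 higher and 1 lower receptors and 2 higher and 2 lower CA1 markers in control mice. The differences between these counts were not tested. The smallest difference in the PianpKO mice among the 15 higher genes was that of *Gm5741* (1.47, against 2.44 in control mice). It was at 4.25 and 4.14 in the hippocampus of PianpKO mice 1 and 3, below the hypothalamus of mouse 2 (4.59). *Slitrk6* was at 4.95 in the hippocampus of PianpKO mouse 2, within the 4.87 to 5.65 of the PianpKO hypothalamus.

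In the PianpKO hippocampus samples, as in the control ones, high means of the thalamic list stood beside low means of the CA1 list. The mean of the thalamus and habenula markers was 6.18, 6.14, 6.66, 7.30 and 6.53 in PianpKO mice 1 to 5, and that of the CA1 pyramidal cell markers was 7.37, 7.20, 6.46, 6.35 and 6.72. Mice 1 and 2 had the 2 highest CA1 and the 2 lowest thalamic levels, and mice 3 and 4 the reverse. *Spink8* was at 7.08, 6.60, 4.50, 6.09 and 5.78, so that mouse 3 was at the level of the control amygdala, and *Fibcd1* at 7.42, 7.36, 6.08, 6.58 and 6.53. The 2 genotypes were compared directly by the difference of the contrast. No probe set was called in limma (0%), and 1096 (4.31%) had an unadjusted p under 0.05. The smallest adjusted p among the 30 leading genes was 0.9994.

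**Figure D5:**
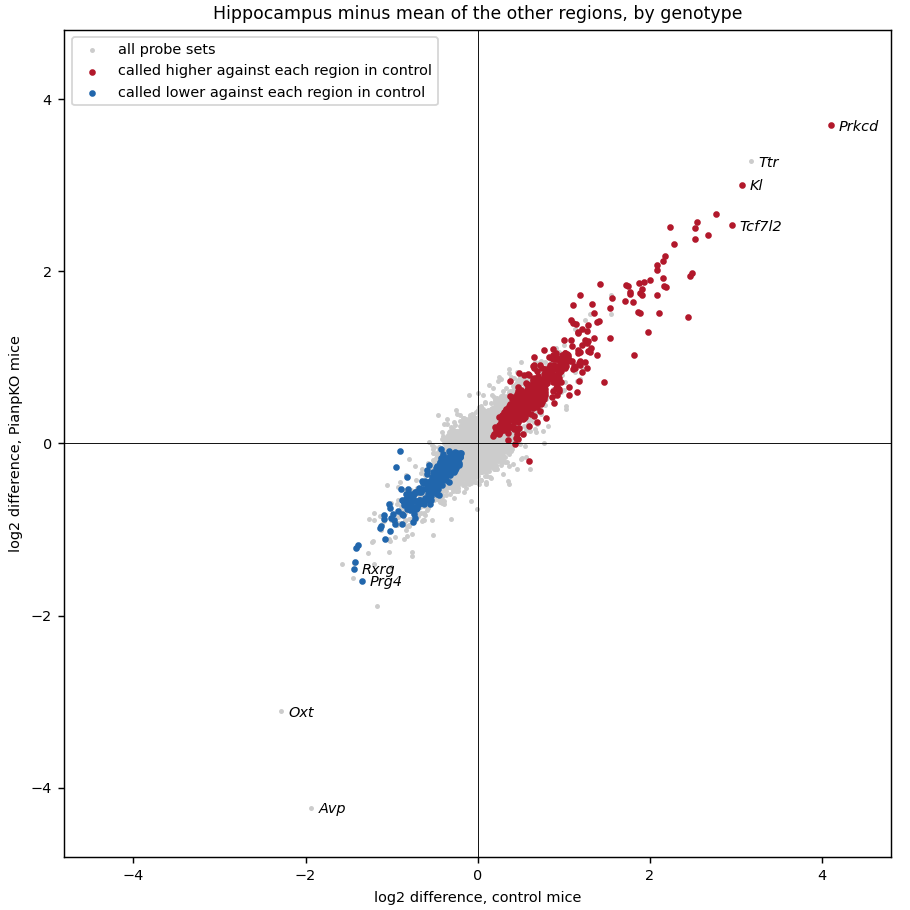
Log2 difference of hippocampus minus the mean of the other regions in PianpKO mice (y axis) against that in control mice (x axis), a point for each probe set. Red points were called higher and blue points lower against each region in control mice. *Prkcd* lies farthest out at 3.69 in PianpKO and 4.11 in control mice, *Avp* lies at -4.23 and -1.93.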

How the data were processed

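Total RNA of 39 punches was hybridized to Affymetrix arrays, and raw scanner values and detection calls were not used here. The authors mapped probes to Entrez genes through a custom chip definition (version 21), applied quantile normalization and deposited log2 values. RMA is named, without a version, in the submitters' processing notes. The array medians ran from 4.62305 to 4.62315. All columns of the table were used. Platform annotation gave 1 symbol for 24675 of 25429 probe sets, and 754 were left unnamed.

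Linear models of limma 3.58.1 (lmFit, contrasts.fit and eBayes, under R 4.3.3) were fitted to the 19 control samples with region and mouse as terms. The mouse was the number in the sample description, which recurs across regions for the same animal. The 39 samples hold no amygdala of control mouse 4. Deviations from the group means correlated at a median of r = 0.159 in 27 pairs of samples of the same mouse and of -0.046 in 108 pairs of samples of different mice, each pair from 2 regions. Deviations of 1 mouse can be technical as well as biological. The 20 PianpKO samples were fitted alike. The difference between the genotypes came from a joint fit of the 39 samples in which mice were random effects (duplicateCorrelation, statmod 1.5.0). The Benjamini-Hochberg adjustment ran over all probe sets. No filter on dim probe sets was used. Scan batches and single ages were not used.

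The 30 gene lists, the genes named and the alternatives were chosen with earlier results of these data known. Named genes were the 15 most positive and 15 most negative differences called against each region without overlap of samples, members of the hippocampal lists, up to 6 members of each other list by the smallest p, *Pianp*, the 10 largest SDs over the control hippocampus samples and genes used to describe bordering tissue. *Ttr*, *Shox2*, *Slc17a6*, *Chrna3* and the microRNA and small nucleolar RNA genes were picked with their values in view. The amygdala list is one of genes enriched there, several of which other regions share. On simulated data, 58 of 67 planted log2 differences of 0.5, 67 of 67 of 1 and 66 of 66 of 2 were called. Among 25229 unchanged probe sets of 25429, there were 11 false calls. Unchanged probe sets had the same mean in all regions there, and the noise was independent between probe sets. The rate of false calls in the real arrays, where regions differ and genes vary together, was therefore not tested. The alternatives were no block, a random block, pooling of the other samples, recentering, renormalization, a filter on dim probe sets, variance trend, an ordinary linear model, array weights, a fit over all samples, and leaving out each mouse or region in turn. Promoter and microRNA sequences came from RefSeq (GRCm38.p6).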

Additional observations from a re-analysis of the deposited data

Results flagged for a closer look

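In 236 groups of 4 or 5 control samples, 7 had a highest or lowest sample far from the rest by Dixon's criterion, which chance alone meets in about 1 in 20 groups. In the hippocampus, *Prox1* was lowest in mouse 3 (7.68, the next at 8.41), *Nr4a3* was lowest in mouse 3 (7.41, the next at 7.64), *Rab3b* was lowest in mouse 1 (6.60, the next at 7.22), *Snord90* was highest in mouse 3 (7.35, the next at 5.19) and *Mir434* was highest in mouse 5 (3.84, the next at 3.47). In the hypothalamus, *Drd1* was highest in mouse 3 (8.39, the next at 7.51) and *Prg4* in mouse 2 (6.96, the next at 6.14). Without control mouse 3, *Prox1*, *Nr4a3* and *Drd1* kept their calls.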

How the results depend on the processing

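Under 18 alternative settings, 89 named and called genes kept their direction and call in all and 66 did not. Of 210 counts of called probe sets, 192 stayed within 1.5 times the reported one. Of 1080 counts of called list members, 903 did so, and 177 moved further or to or from 0. Pooling the 14 other samples as 1 group gave 788 probe sets higher and 468 lower in the hippocampus, and 12 lower by at least 1, since differences between the regions then enter the spread. Leaving out the cortex gave 100 lower by at least 1. Leaving out 1 control mouse at a time gave 1183 to 1470 higher and 947 to 1268 lower against the mean (102 to 138 and 29 to 50 with a difference of at least 1), 949 to 1458 and 787 to 1343 against the amygdala, 1419 to 1840 and 1250 to 1756 against the cortex, 1253 to 1464 and 1240 to 1561 against the hypothalamus, and 290 to 415 and 118 to 183 against each region. Among the counts that moved by over 1.5 times were those without mouse 1 (996 lower against the mean, 118 against each region), mouse 2 (947 and 120) and mouse 5 (150 against each region, 929 against the amygdala). In PianpKO mice the ranges were 1174 to 1536 higher and 907 to 1328 lower, with 907 without mouse 4 and 989 without mouse 5. The genotype difference kept 0 called probe sets throughout. Without the mouse as a replicate block, 1371 probe sets were higher and 1107 lower, and 388 and 153 against each region. No count of called probe sets moved by over 1.5 times without this pairing. Signs turned for *Calb2* (-0.13) and *Agt* (-0.055) without the cortex and for *C1ql3* (0.15) and *Pou3f1* (-0.055) without the amygdala, and none of these 4 values was called. The cause of these changes was not tested. Arrays 4 or 5 in number per group and signal near background for dim genes limit what the contrast can show.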

Other observations

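Small nucleolar RNA genes, which guide the chemical modification of ribosomal RNA, formed a class that was picked after its values were seen. In the control hippocampus, 64 of them (57.7% of those measured) were higher and 0 lower than in the mean of the other regions, with a median difference of 0.36, beside 6.78% higher over all probe sets. Against each region 14 were higher. Their mean level was 7.72, 7.65, 7.79, 7.32 and 7.30 in the hippocampus samples of control mice 1 to 5, against 6.88 to 7.32 in the amygdala, 6.49 to 7.26 in the cortex and 6.94 to 7.51 in the hypothalamus, so that the groups overlapped. In PianpKO mice, 18 were higher and 2 lower, with a median of 0.19. Many of these genes lie in introns of other genes, and the part of RNA quality in their levels was not tested.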
